A study of Rattus norvegicus with 6 samples.

Results

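Reads from the trailers of nuclear tRNA precursors, the small RNAs called tRF-1, were followed in 6 small RNA libraries of rat muscle. A trailer is the stretch of a tRNA transcript that lies after the last base of the mature tRNA. A read was taken as a trailer read when it aligned to the precursor of a nuclear tRNA gene, with at most 1 mismatch, started no more than 2 bases before the first trailer base, and aligned to no mature tRNA. The rule used position and not the level in either group. It took 2450 of the 77567 distinct sequences in the tRNA alignments, and these held 13120 of 6277611 reads. The precursors carry 40 bases on each side of the gene. Genes whose first 20 trailer bases are the same were merged, so that 357 genes gave 336 trailers, 15 of them shared by more than 1 gene.

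The 3 control and 3 experimental libraries were grouped by their titles alone. All 6 came from Lewis rats of 6 to 8 weeks, as total RNA of muscle, and the labels state no genotype and do not name a treatment for the experimental samples. The series title concerns small RNAs of tRNAs as markers of acute rejection of a transplanted composite tissue, while the design text and a skin label describe another experiment in mice. No label ties a library to its own animal. The p-values therefore measure just the spread from library to library, which may be technical. Only tRNA alignments were analysed here, so markers of muscle could not be checked. In bulk tissue, fewer cells of a type and less RNA per cell cannot be told apart.

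RNA polymerase III starts a tRNA transcript upstream of the gene and stops in a run of T on the coding strand, which becomes a run of U at the end of the RNA. The La protein binds this U run and protects the precursor. RNase Z (ELAC2) cuts after the last base of the mature tRNA and sets the trailer free, and CCA is then added to the tRNA. A trailer cut and ended in this way starts at the first trailer base and ends within the T run.

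The trailers on which the results turn are shown here as the 40 bases after each gene, from the deposited alignment blocks, 5′ to 3′. Capitals mark the first run of at least 4 T at which transcription could end, and a trailer without capitals has no such run. Positions are counted from 1 at the first trailer base.
Arg-ACG-1-1: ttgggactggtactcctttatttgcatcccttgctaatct
iMet-CAT-1-1: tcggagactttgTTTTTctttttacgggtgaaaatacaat
Thr-AGT-1-2: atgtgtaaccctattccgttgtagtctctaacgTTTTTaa
His-GTG-1-6: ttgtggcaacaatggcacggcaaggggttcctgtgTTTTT
His-GTG-1-7: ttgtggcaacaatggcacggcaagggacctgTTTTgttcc
His-GTG-1-1: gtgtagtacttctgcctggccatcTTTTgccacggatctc
Ser-GCT-3-4: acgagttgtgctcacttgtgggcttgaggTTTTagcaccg
Arg-ACG-3-1: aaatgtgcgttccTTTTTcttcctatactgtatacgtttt
Arg-TCG-3-1: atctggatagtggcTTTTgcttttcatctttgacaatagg
Val-TAC-1-1: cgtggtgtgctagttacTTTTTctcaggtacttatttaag
Thr-CGT-3-1: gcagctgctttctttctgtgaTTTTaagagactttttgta
Lys-CTT-1-5: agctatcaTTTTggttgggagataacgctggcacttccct

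The precursor blocks, with their flanks, lie at chr15:33166186-33166338 for Arg-ACG-1-1, chr2:189865613-189865764 for iMet-CAT-1-1, chr10:55618104-55618257 for Thr-AGT-1-2, chr3:114310729-114310880 for His-GTG-1-6 and chr3:114312235-114312386 for His-GTG-1-7. Those of the others lie at chr2:198546067-198546218 for His-GTG-1-1, chr17:43831595-43831756 for Ser-GCT-3-4, chr8:132606689-132606841 for Arg-ACG-3-1, chr17:43847832-43847984 for Arg-TCG-3-1, chr1:228445236-228445388 for Val-TAC-1-1, chr14:30341666-30341817 for Thr-CGT-3-1 and chr10:12852698-12852850 for Lys-CTT-1-5. Each block holds 40 bases before the gene, the gene and the 40 bases after it, and the trailer is the last of these. The submitters' processing notes name mm9, a mouse build that the rat positions do not match. The build of these positions is not given otherwise, and the blocks state no strand.

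Trailer reads were rare and few trailers held most of them. The control libraries held 561, 1233 and 795 trailer reads out of 550004, 740627 and 316990 reads aligned to tRNAs. In the experimental libraries they numbered 2390, 5005 and 3136 out of 876494, 1927269 and 1866227. That is 0.102%, 0.166% and 0.251% of reads in the controls and 0.273%, 0.260% and 0.168% in the experimental libraries. The 95% Wilson intervals of single libraries, which cover counting error only, run from 0.0939% to 0.111% in the lowest and from 0.262% to 0.284% in the highest. The groups overlapped (0.173% ± 0.0746 against 0.233% ± 0.0570, SD, n = 3 each, two-sided exact permutation p = 0.2, adjusted p = 0.3 over 6 measures). The control libraries have fewer trailer reads, so rare trailers were measured less closely there. A trailer with 0 reads in a library could still make up as many as 4.05 to 9.46 CPM (counts scaled to a common number of tRNA-aligned reads) in the controls and 1.56 to 3.42 in the experimental libraries, taking 3 reads as the limit that a count of 0 allows.

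Of the 336 trailers, 248 had any read, 179 had 1 to 9 reads in all, and 37 had at least 30. These 37 held 91.9% of the trailer reads. Arg-ACG-1-1 alone held 26.97%, the 4 most abundant trailers held 55.0% and the first 12 held 76.3%. Of the distinct sequences, 1668 were seen once, and the 165 with at least 10 reads held 71.7% of the reads. Most reads could be placed, since 97.6% of them fell on 1 trailer only. The authors' own typing called 37.0% of these reads tRF-1.

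The position of the T run went with how often a trailer was seen. Reads in the table are 14 to 40 nt long, so a trailer that ends before position 14 cannot appear whole. Of the 121 trailers whose first run of at least 4 T ends at position 14 or later, 28 (23.1%) had at least 30 reads. Of the 159 whose run ends earlier, 5 (3.14%) did, and of the 56 without such a run, 4 (7.14%) did. The selenocysteine trailer had a run in reach and no read.

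The starts and ends of trailer reads were counted apart and then jointly. The first trailer base was the start of 67.1% of reads and the second base of 15.5%, while 1.20% started 1 base and 0.846% started 2 bases upstream of it. A further 14.6% started at position 5 or later. On trailers with a run of at least 4 T, 79.5% of reads ended within the run, 2.53% before it and 18.0% beyond it. Of the 9107 reads on these trailers, 5025 (55.2%) started at the first trailer base and also ended within the run, and 6705 (73.6%) did so when starts at the second base were added. Of all 13120 trailer reads these are 38.3% and 51.1%, since reads on trailers without a run, as Arg-ACG-1-1, can have no such end. Among the 37 trailers with at least 30 reads, the most frequent start was position 1 in 20, position 2 in 10 and position 7 or later in 7. Of the 28 with a run in reach, 24 had their most frequent end within it, after 3 T in 8 and after 4 T in 14, and all 24 started at position 1 or 2. The second base was the usual start in Val-TAC-1-1 (96.5% of its reads), iMet-CAT-1-3 (90.6%), Leu-TAG-3-1 (97.4%) and Ala-TGC-1-1 (97.8%).

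**Figure D1:**
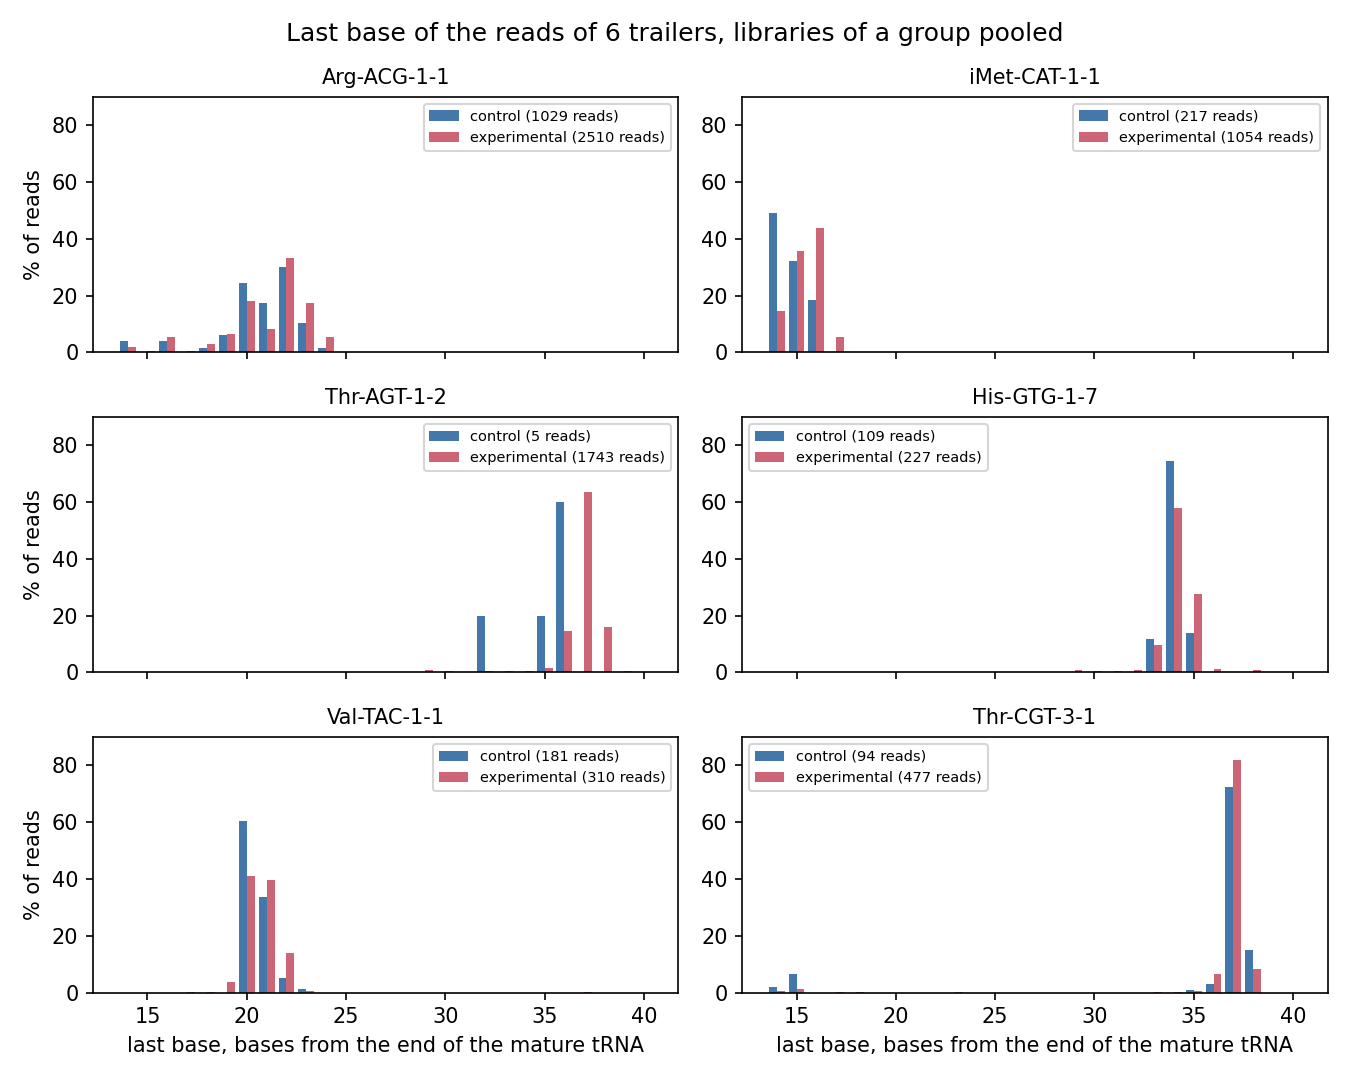
The percent of a trailer's reads (y axis) by the position of the last base, counted from the end of the mature tRNA (x axis), for 6 trailers, with the 3 libraries of each group pooled. Reads of Arg-ACG-1-1 end over several bases from 20 to 23, those of iMet-CAT-1-1 move from 14 towards 16, and Thr-AGT-1-2 has 5 control reads.

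The main difference in form between the groups was at the 3′ end. Reads that ended in the T run held on average 3.13, 3.40 and 3.31 bases of it in the control libraries and 3.75, 3.71 and 3.72 in the experimental libraries. The groups did not overlap (3.28 ± 0.136 against 3.73 ± 0.0211, SD, n = 3 each). The exact permutation p was 0.1, the smallest that 3 against 3 libraries can give, and the adjusted p over 6 measures was 0.2, so the difference did not pass 0.05. Bases held were counted to the position of the last base, whether or not that base matched. With exact matches alone the means were 3.07, 3.39 and 3.34 in the controls and 3.74, 3.72 and 3.73 in experimental libraries. Ends at T 4 of the run made up 33.5%, 37.0% and 31.9% in the controls and 53.5%, 53.8% and 52.5% in experimental libraries. Ends at T 2 made up 25.8%, 12.6% and 13.1% in the controls and 5.80%, 4.86% and 6.55% in experimental libraries. The most frequent end was thus at T 4 in each experimental library and at T 3 in each control library.

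**Figure D2:**
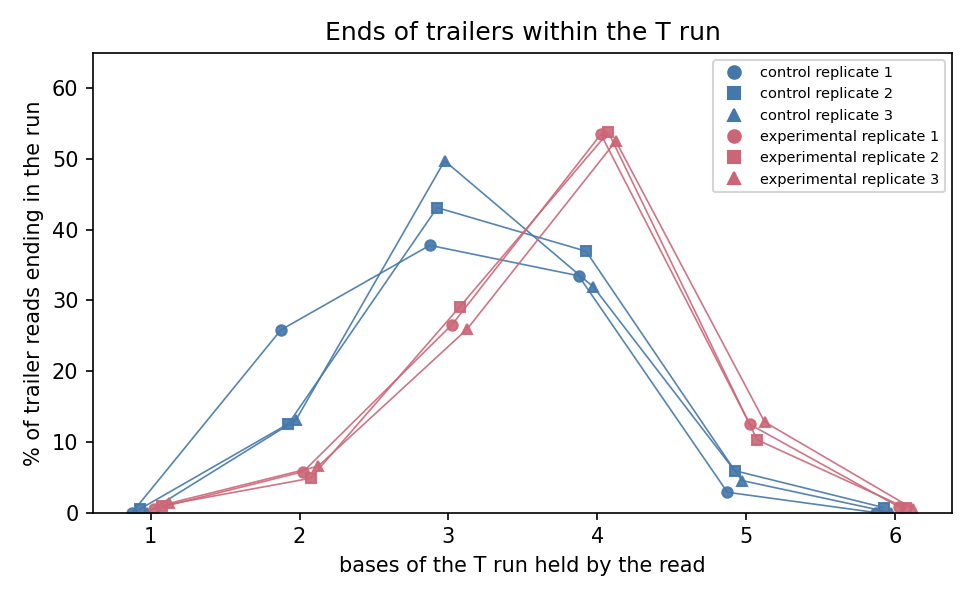
The percent of trailer reads ending in the T run (y axis) by the number of bases of the run that they held (x axis), 1 line per library. Bases held were counted to the position of the last base, whether or not it matched. The experimental libraries peak at 4 bases, between 52.5% and 53.8%, and the control libraries peak at 3.

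The difference was seen within single trailers as well as over the sum. It was 0.446 bases over all trailers, 0.355 without the Thr-AGT-1-2 trailer, and 0.255 as the mean of 7 trailers that had at least 5 such reads in every library. All 7 held more of the run in the experimental group when the libraries of a group were pooled, and in 3 of them the libraries of the groups did not overlap. For iMet-CAT-1-1, a trailer of an initiator methionine tRNA, the means were 2.49, 2.85 and 2.63 bases against 3.41, 3.37 and 3.42. For His-GTG-1-6, taken with its neighbours 1-7 and 1-8, they were 2.81, 3.35 and 3.14 against 3.53, 3.52 and 3.54. These genes have T runs of unlike length, so the mean also varies with their mix. His-GTG-1-8 held 0, 6 and 5 reads in the controls and 19, 33 and 17 in the experimental libraries. In His-GTG-1-7 alone, with libraries pooled, ends at position 34 took 74.3% of control and 57.7% of experimental reads. Ends at position 35 took 13.8% and 27.8%. For Arg-ACG-3-1 the means were 3.29, 3.20 and 3.30 against 3.52, 3.44 and 3.50. An inner mismatch was in 97.6% of control and 36.6% of experimental reads of Arg-ACG-3-1, and in 99.1% and 20% of those of His-GTG-1-7. Such reads with another mismatch at the end were not aligned, and what this does to the means was not tested. In the other 4 of the 7 trailers the libraries of the groups overlapped, as in Ala-CGC-3-1 (3.62, 3.58 and 3.70 against 3.74, 3.64 and 3.55). Of 14 trailers with at least 10 such reads in each group, 12 had the higher mean in the experimental group and 2, Tyr-GTA-2-2 and Gly-TCC-1-1, the lower. The shortest read, 14 nt, sets a floor under some of these means. A Tyr-GTA-2-2 read from position 1 that ends in the run can only hold 4 T. Those of Gly-TCC-1-1 from position 1 and Val-AAC-1-4 from position 2 hold at least 4 T, and those of Arg-CCG-3-1 from position 2 at least 3. These trailers could hardly show a shift, so nothing is read from the count.

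The iMet-CAT-1-1 trailer shows the shift read by read. It ended mainly in 3 forms.
iMet-CAT-1-1 with 2 T: tcggagactttgTT
iMet-CAT-1-1 with 3 T: tcggagactttgTTT
iMet-CAT-1-1 with 4 T: tcggagactttgTTTT
Ends at position 14 took 59.4%, 41.8% and 49.0% of its reads in the controls and 13.9%, 16.8% and 12.7% in the experimental libraries. Ends at position 16 took 8.70%, 28.6% and 11.8% in the controls and 47.4%, 41.3% and 42.5% in the experimental libraries. Neither end overlapped between the groups, and ends at position 15 differed little (31.9%, 28.6% and 39.2% against 34.6%, 35.8% and 37.0%). The shortest form is 14 nt, the shortest read in the table, so any shorter form of this trailer could not be seen.

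Mean length also differed, and that difference lay in 1 trailer. Trailer reads averaged 19.6, 20.1 and 21.4 nt in the controls and 22.6, 22.9 and 22.7 nt in experimental libraries (exact permutation p = 0.1, adjusted p = 0.2). The difference of 2.37 nt became -0.195 nt without the long Thr-AGT-1-2 trailer. The share of reads that started exactly at the first trailer base overlapped between the groups (63.9% ± 1.78 against 66.7% ± 5.25, SD, n = 3 each, exact permutation p = 0.6, adjusted p = 0.6). It was lower, not higher, in the experimental group by 1.33 points without Thr-AGT-1-2 and by 0.194 points without experimental replicate 2. The share ending in the T run overlapped too (71.5% ± 9.41 against 80.7% ± 3.79, exact permutation p = 0.3, adjusted p = 0.36). Its direction turned to -0.572 points among reads that started within 2 bases of the first trailer base. It also depended on the run taken. For a first run of at least 3 T it was 17.7%, 26.0% and 45.5% against 46.6%, 47.9% and 45.6%, narrowly without overlap.

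**Figure D3:**
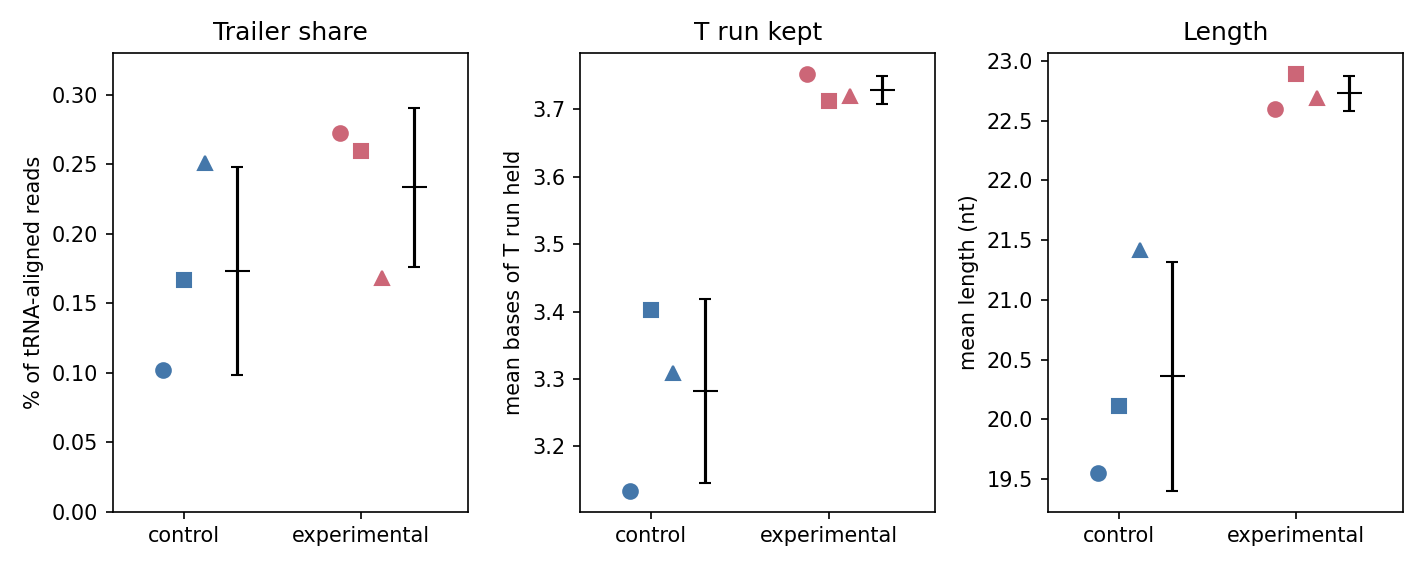
Trailer share of tRNA-aligned reads (left, percent), mean bases of the T run held (middle) and mean read length (right, nt), 1 point per library with the group mean and SD beside it. The middle and right axes do not start at 0. The trailer share overlaps between groups, while the other measures do not.

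Levels of single trailers were compared as sums of their reads. These sums were fitted with limma voom together with the other tRNA reads summed by anticodon, 90 sums in all, and are given as normalised CPM. Each read is a whole small RNA, so CPM of different trailers can be set side by side without a length term. A filter on low counts left 21 of the 336 trailers. A trailer could pass it through 1 group alone, so these 21 do not stand for all trailers. Of them 3 were higher in the experimental libraries at an adjusted p under 0.05 and 0 were lower, against 4.44% of all 90 sums called higher and 0% lower. The 3 were Thr-AGT-1-2, His-GTG-1-1 and Ser-GCT-3-4. At an unadjusted p under 0.05 there were 10 higher and 1 lower. With each sum's own spread in place of a spread shared across sums, 0 were called, with 7 higher and 1 lower at an unadjusted p under 0.05. Leaving out 1 library also moved the count, to 5 without control replicate 1, 6 without control replicate 3, and 1 without control replicate 2, experimental replicate 1 or experimental replicate 3. Control and experimental libraries were fully apart in 13 of the 21, 12 higher and 1 lower, where 18.9% of all 90 sums were higher without overlap and 7.78% lower, or 26.7% in either direction. Several of the 12, such as Thr-AGT-1-2, His-GTG-1-1 and Ser-GCT-3-4, passed the filter through the experimental libraries alone. The 1 lower, Lys-CTT-1-5, passed it through the control libraries alone. Nothing is therefore read from this count. Without the filter 235 trailers entered among 304 sums, 87 of them with a log2 fold change above 0. The median was -0.37 over these trailers and -0.28 over the 304 sums. Of the 235, 11 were called higher and 9 lower, against 12 and 9 of the 304. As many as 179 trailers had 1 to 9 reads, and nothing is read from these directions. The median log2 fold change over all 90 sums, -0.10, moved to -0.35 with library totals in place of trimmed mean factors.

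**Figure D4:**
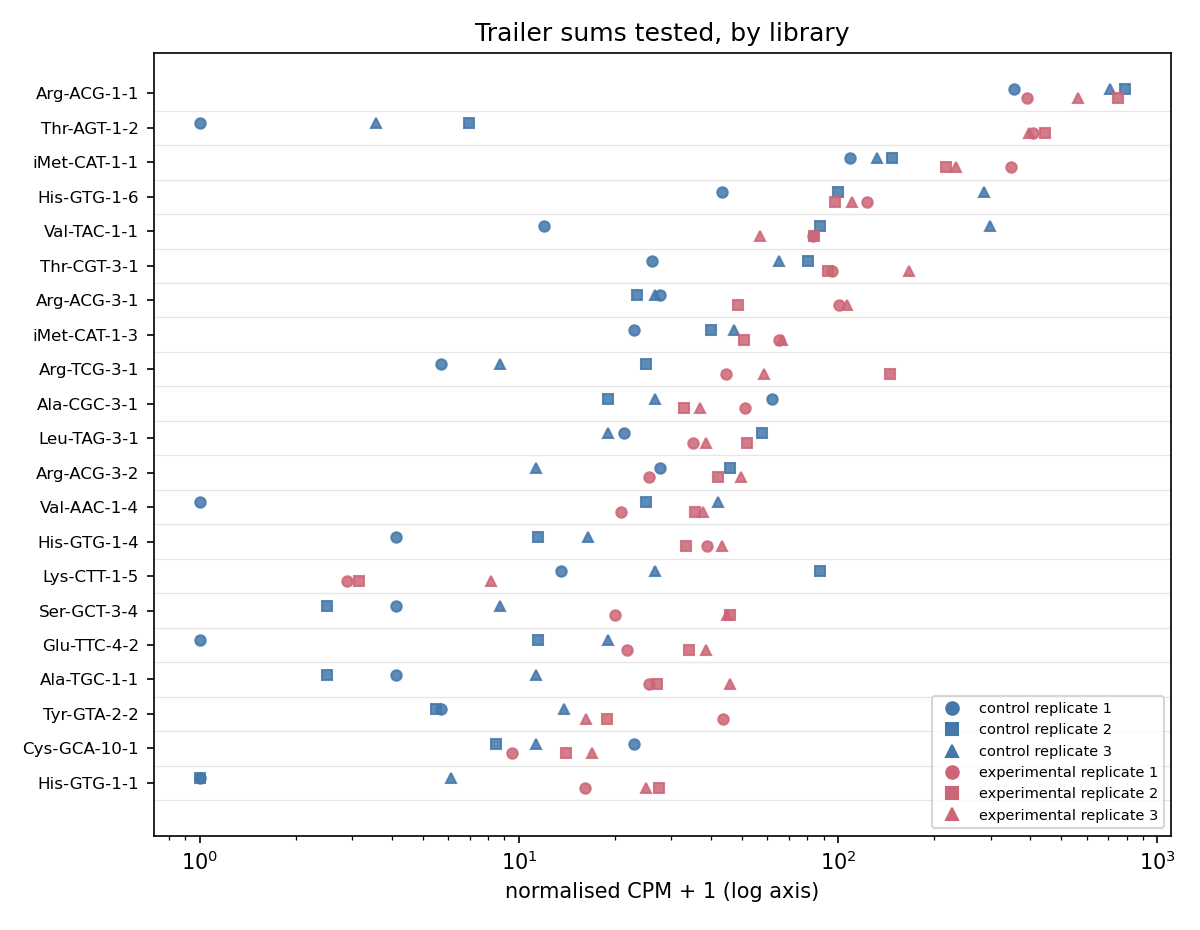
Normalised CPM + 1 (x axis, log scale) of the 21 trailers tested (y axis), 1 point per library. Thr-AGT-1-2 lies between 394 and 443 CPM in the experimental and at or below 5.98 CPM in the control libraries, Arg-ACG-1-1 overlaps between groups, and Lys-CTT-1-5 is lower in the experimental group.

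Thr-AGT-1-2, from a gene for a threonine tRNA, was the trailer that separated the groups most. It held 0, 4 and 1 reads in the control libraries and 431, 819 and 493 in the experimental libraries. In CPM that was 0, 5.98 and 2.57 against 408, 443 and 394. By mean level it stood next after Arg-ACG-1-1 in the experimental group, and it was near the counting limit in the control group. The log2 fold change was 7.24 (SE 0.82, voom adjusted p = 0.000104), and it was called in 14 of 15 alternatives, with an adjusted p of 0.0647 by its own spread. The log2 fold change was 6.19 without control replicate 1 and 7.86 without control replicate 2. Its main forms without a mismatch ended with 3, 4 or 5 T.
Thr-AGT-1-2 with 3 T: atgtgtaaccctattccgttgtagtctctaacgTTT
Thr-AGT-1-2 with 4 T: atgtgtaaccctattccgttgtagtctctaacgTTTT
Thr-AGT-1-2 with 5 T: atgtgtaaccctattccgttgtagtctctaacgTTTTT
In the experimental libraries 61.5%, 66.5% and 60.04% of its reads ended at position 37, reads with a mismatch there included. In the same libraries 85.4%, 90.5% and 84.6% started at the first trailer base. Of the 4 reads in control replicate 2, 3 started after the first base, and the mean length of the 4 was 27 nt against 35.3, 36.0 and 35.3 nt in the experimental libraries. Other reads of Thr-AGT tRNAs did not follow it, at 161 ± 42.6 CPM in the controls and 102 ± 16.2 CPM in experimental libraries (SD, n = 3 each, log2 fold change -0.65, voom adjusted p = 0.390).

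His-GTG-1-1, from a histidine tRNA gene, held 0, 0 and 2 reads in the controls and 16, 49 and 30 in the experimental libraries. In CPM that was 0, 0 and 5.14 against 15.1, 26.5 and 24.0. With 2 control reads the size is poorly known: the ratio of pooled CPM was 19.4, with an exact 95% interval for counting error from 5.22 to 162. The log2 fold change was 3.84 (SE 0.86, voom adjusted p = 0.0314). The log2 fold change was 4.67 without control replicate 3, 3.17 without control replicate 1 and 3.27 without control replicate 2. The call was lost without control replicate 2 (adjusted p = 0.0506), experimental replicate 1 (0.0590) or experimental replicate 3 (0.149), and with median-of-ratios factors (0.0573). His-GTG-1-4, on another gene of the same anticodon, had 3.13, 10.5 and 15.4 CPM against 37.8, 32.5 and 42.3 CPM, also without overlap, and was not called (voom adjusted p = 0.142). All other His-GTG reads had a log2 fold change of 0.24 (voom adjusted p = 0.858).

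Ser-GCT-3-4, from a serine tRNA gene, held 2, 1 and 3 reads in the controls and 20, 83 and 55 in the experimental libraries. In CPM that was 3.13, 1.496 and 7.71 against 18.9, 44.9 and 43.9. The groups did not overlap, with a log2 fold change of 3.05 (SE 0.79, voom adjusted p = 0.0490). That p lies next to the threshold, and it was over it without control replicate 2 (0.152) or any 1 of the 3 experimental replicates (0.0590 to 0.214). Most of its reads were full trailers, with 93.3% starting at position 1.

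The most abundant trailer did not separate the groups. Arg-ACG-1-1, from an arginine tRNA gene, had 355, 788 and 707 CPM in the controls and 391, 753 and 563 CPM in experimental libraries (log2 fold change -0.18, SE 0.55, voom adjusted p = 0.868). Its trailer has no run of 4 T but 2 runs of 3 T parted by an A, and its reads ended around them.
Arg-ACG-1-1 to position 20: ttgggactggtactccttta
Arg-ACG-1-1 to position 22: ttgggactggtactcctttatt
Arg-ACG-1-1 to position 23: ttgggactggtactcctttattt
Although the level overlapped, some ends did not. Ends at position 21 took 19.4%, 18.0% and 14.9% of its reads in the controls and 8.72%, 7.76% and 8.37% in the experimental libraries, and ends at position 23 took 10.1%, 11.01% and 9.82% against 17.7%, 18.0% and 16.03%. Ends at position 22, the most frequent, overlapped (25.6%, 29.8% and 34.2% against 34.4%, 34.8% and 29.1%). Nearly all of its reads (97.5%) started at the first trailer base.

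The 2 initiator methionine trailers that could be tested, of 8, lay higher in the experimental libraries without being called. iMet-CAT-1-1 had 108, 147 and 131 CPM against 347, 216 and 233 CPM (log2 fold change 1.07, SE 0.41, voom adjusted p = 0.178). iMet-CAT-1-3, whose gene lies elsewhere at chr17:43822227-43822378, had 21.9, 38.9 and 46.3 CPM against 64.3, 49.8 and 65.5 CPM (log2 fold change 0.79, SE 0.50, voom adjusted p = 0.409). In neither did the groups overlap. The next in reads, iMet-CAT-1-2, had 2.83, 6.5 and 4.5 reads in the controls against 4.5, 10 and 9 reads, with shared reads split, which were too few to be tested. Other reads of iMet-CAT tRNAs moved by a like amount, 164 ± 25.0 CPM against 305 ± 41.4 CPM (SD, n = 3 each, log2 fold change 0.92, voom adjusted p = 0.283).

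Among the other arginine trailers, Arg-TCG-3-1 had 4.70, 23.9 and 7.71 CPM in the controls and 43.5, 144 and 57.5 CPM in the experimental libraries. The groups did not overlap, and the test missed its threshold (log2 fold change 2.78, SE 0.85, voom adjusted p = 0.0866). It was called in 5 of 15 alternatives, and its log2 fold change was 3.34 without control replicate 2, 2.08 without control replicate 1 and 1.95 without experimental replicate 2. Arg-ACG-3-1 had 26.6, 22.4 and 25.7 CPM against 99.3, 47.6 and 105.4 CPM (log2 fold change 1.61, SE 0.59, voom adjusted p = 0.178). Its value depends on how mismatched reads are counted, as described with the substitutions.

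Several abundant trailers overlapped between the groups. His-GTG-1-6 had 42.3, 98.7 and 285 CPM against 122, 96.9 and 109 CPM, and Val-TAC-1-1, from a valine tRNA gene, had 10.96, 86.8 and 298 CPM against 82.3, 82.8 and 55.9 CPM. In both the control libraries spread more widely than the experimental ones, with replicate 1 lowest and replicate 3 highest. Their adjusted p by voom was 0.868 and 0.852. Ala-CGC-3-1, Leu-TAG-3-1, Arg-ACG-3-2 and Cys-GCA-10-1 overlapped too, with log2 fold changes of 0.26, 0.48, 0.53 and -0.03 (SE 0.58, 0.58, 0.63 and 0.73). Glu-TTC-4-2, from a glutamic acid tRNA gene, did not overlap, at 0, 10.5 and 18.0 CPM against 20.8, 33.01 and 37.5 CPM (log2 fold change 2.47, SE 0.96, voom adjusted p = 0.178). Its log2 fold change was 0.92 without control replicate 1, the library at 0, and 3.17 without control replicate 3. The sum of the Ala-TGC-1-1 trailer did not overlap either, at 3.13, 1.496 and 10.3 CPM against 24.6, 26.0 and 44.7 CPM (log2 fold change 2.72, SE 0.77, voom adjusted p = 0.0738).

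The fullest trailers of aspartic acid, glycine, asparagine and isoleucine tRNAs did not pass the filter, which asks for a minimum level in 3 libraries. Asp-GTC-2-6 held 104 reads, 83 of them in experimental replicate 2, and Gly-GCC-2-1 held 49, Asn-GTT-1-1 39 and Ile-AAT-1-6 32. Experimental replicate 2, the library with the most trailer reads, held most of the reads of each.

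Some trailer-derived reads were not whole trailers. Thr-CGT-3-1, from a threonine tRNA gene, had 25.0, 79.3 and 64.3 CPM in the controls and 94.6, 92.0 and 165 CPM in the experimental libraries, without overlap (log2 fold change 1.17, SE 0.53, voom adjusted p = 0.283). Its reads started at position 13 (42.2%) or 14 (46.9%), ran through the first T run and ended at position 37 (80.2%), in a later run of 5 T.
Thr-CGT-3-1 from position 14: ttctgtgaTTTTaagagacttttt
Thr-CGT-3-1 from position 13: tttctgtgaTTTTaagagacttttt
Only 4.20% of its reads started at the first trailer base. Arg-ACG-3-2 was alike in form, since 70.1% of its reads started at position 10 and 66.8% ended at position 36.
Arg-ACG-3-2 from position 10: TTTaataatactgtttagaaattttct

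Lys-CTT-1-5 was the 1 trailer tested that was lower in the experimental libraries without overlap, at 12.5, 86.8 and 25.7 CPM against 1.89, 2.16 and 7.19 CPM (log2 fold change -3.23, SE 0.95, voom adjusted p = 0.0787). It was called in 6 of 14 alternatives, and its log2 fold change was -4.10 without control replicate 1 (adjusted p = 0.00337), -3.84 without experimental replicate 3 (0.149) and -2.39 without control replicate 2 (0.152). None of its reads started at the first trailer base and 100% carried a mismatch, mostly in a read of 14 nt.
Lys-CTT-1-5 with T12C: aTTTCggttgggag
Capitals here mark the same positions, the last of them the substituted base. The trailer passed the filter through the control libraries alone, the group in which it was higher. Control replicate 2 held 58 of its reads. Whether these reads come from this locus was not tested. The other reads of Lys-CTT tRNAs were higher in the experimental libraries, at 10812 ± 3238 CPM in the controls and 69408 ± 29929 CPM in experimental libraries (SD, n = 3 each, log2 fold change 2.67, voom adjusted p = 0.0314).

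Single sequences were also compared, in a voom fit of the 2226 tRNA-aligned sequences that passed the filter. Of these 18.7% were called higher and 7.64% lower in the experimental libraries. The 27 trailer sequences among them held 5 called higher and 1 called lower, and with each sequence's own spread 2 higher and 0 lower. Calls numbered 9 without control replicate 1 or 2, and 3 without experimental replicate 1. Without regard to a test, 10 were higher and 1 lower without overlap, where 26.1% of all sequences were higher and 14.6% lower, or 40.7% in either direction. Here too a sequence could pass the filter through 1 group alone, so nothing is read from these counts. Without the filter 41 of 2450 trailer sequences were called higher and 7 lower, where 2109 and 993 of all 77567 sequences were. All sequences shared 1 pooled spread in this fit, which treats sequences of a library as separate evidence.

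The 3 Thr-AGT-1-2 forms printed above were among the 5. Each had 0 reads in all control libraries. The form with 5 T had 45.9, 66.5 and 31.3 CPM in experimental libraries, which was at least 26.2-fold higher, and the form with 3 T had 26.8, 73.2 and 28.3 CPM, at least 23.4-fold higher, taking 3 reads over the control group as the limit. Their adjusted p by voom was 9.36e-07 and 3.47e-06, and 0.0375 and 0.0527 with own spread. All 3 forms passed the filter through the experimental libraries alone. They are end forms of 1 trailer, so their p-values are not separate support for its difference. The iMet-CAT-1-1 form with 4 T had 9.68, 19.5 and 13.99 CPM against 95.2, 119 and 43.3 CPM (log2 fold change 2.39, SE 0.95, voom adjusted p = 0.0479). Its form with 3 T had 19.4, 15.6 and 33.6 CPM against 74.4, 99.2 and 36.1 CPM without being called (voom adjusted p = 0.216), and its form with 2 T overlapped at 63.9, 42.9 and 55.9 CPM against 32.9, 49.1 and 13.8 CPM (voom adjusted p = 0.471). The remaining call was a read of the Ala-TGC-1-1 trailer, from an alanine tRNA gene at chr10:34182610-34182761, that started at the second base.
Ala-TGC-1-1 from position 2: gtggttgtaaTTTT
It had 3.87, 0 and 8.39 CPM in the controls and 11.2, 28.9 and 18.0 CPM in experimental libraries (log2 fold change 2.55, SE 1.01, voom adjusted p = 0.0443). This read, too, passed the filter through the experimental libraries alone, so its call is not free of that selection. The calls of the last 2 sequences were lost in most alternatives, holding in 4 and 3 of 13. With 1 library left out, the iMet-CAT-1-1 form was called only without experimental replicate 3 (log2 fold change 2.98), and was at 1.98 without control replicate 3. The Ala-TGC-1-1 read was called only without control replicate 1 (log2 fold change 2.87), and was at 1.43 without control replicate 2.

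The sequence called lower was a form of the His-GTG-1-7 trailer that differs from the reference at 1 base.
His-GTG-1-7 as in the reference: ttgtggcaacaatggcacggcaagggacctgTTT
His-GTG-1-7 with C29A: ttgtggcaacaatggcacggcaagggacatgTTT
The form with C29A had 13.6, 28.6 and 112 CPM in the controls and 8.65, 10.6 and 1.80 CPM in experimental libraries (log2 fold change -2.64, SE 0.98, voom adjusted p = 0.0317, called in 5 of 12 alternatives). It passed the filter through the control libraries alone, the group in which it was higher, so its call is not free of that selection. The log2 fold change was -3.30 without control replicate 1 and -1.68 without experimental replicate 3. The call was lost in that last case (adjusted p = 0.313) and without control replicate 3 (0.165), experimental replicate 1 (0.0648) or experimental replicate 2 (0.0591). Over all reads that cover the base, C29A was in 18 of 18, 32 of 32 and 58 of 59 reads of the control and in 15 of 68, 25 of 90 and 5 of 67 reads of the experimental libraries. Pooled, that is 99.1% against 20%. The experimental libraries thus held both forms and the control libraries nearly only the form that departs from the reference.

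A second trailer split in the same way. Reads of Arg-ACG-3-1 took 2 forms that differ at the second trailer base.
Arg-ACG-3-1 as in the reference: aaatgtgcgttccTTTT
Arg-ACG-3-1 with A2G: agatgtgcgttccTTTT
A2G was in 16 of 17, 15 of 15 and 10 of 10 covering reads of the control and in 36 of 103, 37 of 88 and 44 of 129 of the experimental libraries, or 97.6% against 36.6% pooled. When exact matches alone were counted, the log2 fold change of this trailer went from 1.61 to 5.39 (voom adjusted p = 1.48e-10), since the control reads carry the mismatch. In Thr-CGT-4-1, with few reads, A11G was in 5 of 5 control reads and in 14 of 49 experimental reads (28.6%). In Thr-AGT-1-2, T12C was in both covering control reads, of control replicate 2, and in 0.838% of the experimental reads. T12C of Lys-CTT-1-5 was in 80.3% and 78.6% of covering reads pooled, but varied between libraries. It was in 5 of 8, 53 of 58 and 3 of 10 reads of the controls. In the experimental libraries it was in 2 of 2, 2 of 3 and 7 of 9. The labels name 1 strain for all 6 libraries. Reads with more than 1 mismatch are not in the table. What part sequence differences between the libraries had in the level of any trailer, Thr-AGT-1-2 included, was not tested.

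**Figure D5:**
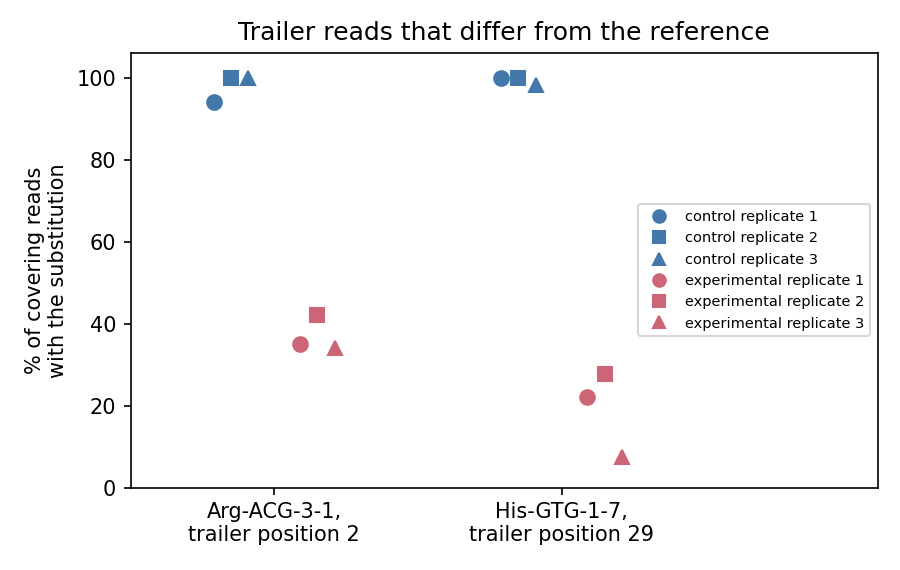
The percent of reads covering a trailer position that carry a base other than the reference (y axis) for 2 trailers, 1 point per library. Control libraries lie at or above 94.1%, and experimental libraries at or below 42.0%.

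Over all trailers, reads with a mismatch made up 35.7%, 35.1% and 34.7% in the controls and 31.0%, 30.2% and 31.6% in experimental libraries (exact permutation p = 0.1, adjusted p = 0.2, no overlap). They include the 2 substitutions described above. A2G of Arg-ACG-3-1 was in 16, 15 and 10 control and 36, 37 and 44 experimental reads. C29A of His-GTG-1-7 was in 18, 32 and 58 control and 15, 25 and 5 experimental reads. All trailer reads numbered 561, 1233 and 795 in the controls and 2390, 5005 and 3136 in the experimental libraries. The difference without these substitutions was not tested. Of the reads with a mismatch 48.3% had it at the last base of the read. Among reads that started within 2 bases of the first trailer base the difference was -1.56 points in place of -4.23, with overlap (exact permutation p = 0.2).

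By the amino acid of the tRNA, arginine trailers held 36.2% of trailer reads, threonine 19.9%, initiator methionine 12.3%, histidine 7.16% and valine 6.63%. Elongator methionine trailers, by contrast, held 0.0381%. Of the arginine trailers 4 were tested and 0 called, of the threonine trailers 2 were tested and 1 called higher, and of the histidine trailers 3 were tested and 1 called higher. Serine and leucine tRNAs carry a long variable arm, and their 43 trailers held 4.79% of reads, with 2 tested and 1 called higher. Trailers of the 16 genes with anticodons whose genes carry an intron (Tyr-GTA, Leu-CAA, Ile-TAT and Arg-TCT) held 153 reads, 108 of them on Tyr-GTA-2-2. That trailer ends its T run at position 14 and had 4.70, 4.49 and 12.9 CPM against 42.6, 17.9 and 15.2 CPM, without overlap and not called (voom adjusted p = 0.373). The 4 trailers of Ser-TGA, the anticodon of a much studied human trailer RNA, held 35.2 reads in all, with reads on several trailers split between them, and none could be tested.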

How the data were processed

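Small RNA libraries (NEBNext kit, per the labels' protocols) were deposited as alignments of collapsed reads to mature and precursor tRNAs with 1 read count per sequence and library; per the file headers and values these deposited counts are raw, with at most 1 mismatch per alignment. The count columns are interleaved with lines of text, so their unit was entered as other, and the deposited counts were analysed with limma voom. Aligner and build are not given in the sources used here; mm9 stands in the submitters' processing notes, but the rat positions do not match it.

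Member sequences were counted once, and split equally where they lay on several trailers. Sums and sequences were kept where 3 libraries reached the CPM that equals 10 counts in the median library, with 15 counts in all. Factors were trimmed means (log ratio trim 0.3, sum trim 0.05). Voom (limma 3.58.1, R 4.3.3, prior count 0.5) compared the groups without covariates, with Benjamini-Hochberg adjustment over all features and a threshold of 0.05. In the fit of sums the factors were 1.16, 0.903 and 1.23 for the control and 1.21, 0.959 and 0.671 for the experimental libraries. The procedure was tested on simulated data. The 6 library measures were compared by two-sided exact permutation tests (scipy 1.17.1). Trailers named are the 12 with the highest mean share of trailer reads, those called, and the first of each list with at least 30 reads. Sequences named are the main form of the first 8 trailers and those called. Others named were chosen after their values were seen. The members and lists were chosen with earlier results of these data known. Alternatives were other factors, no filter, own spread, limma trend, a replicate block, exact matches only, and each library left out.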

Additional observations from a re-analysis of the deposited data

How the results depend on the processing

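Trailers called in the fit of sums, 3 in the text, numbered 1 with median-of-ratios factors, 6 with library totals (5 higher, 1 lower), 20 without a filter (11 higher, 9 lower), 0 with own spread, 1 with limma trend, 5 with exact matches only, 6 with factors from the fit of all sequences (5 higher, 1 lower), and 1 to 6 with 1 library left out. Trailer sequences called, 6 in the text, numbered 3 with library totals, 48 without a filter (41 higher, 7 lower), 2 with own spread, and 3 to 9 with 1 library left out. Replicate numbers did not pair the libraries (same-number deviations correlated at -0.06, -0.41 and 0.14), and with a replicate block 6 trailers (5 higher, 1 lower) and 4 sequences were called. The difference in exact starts, 2.78 points, was -3.39 with each trailer weighing alike, -1.33 without Thr-AGT-1-2 and -0.194 to 4.78 with 1 library left out. That in ends within the T run was -3.61 with each trailer weighing alike and -0.572 for starts within 2 bases. That in length was -0.195 without Thr-AGT-1-2. The difference in bases of the T run kept its direction in all 12 alternatives. The cause of these changes was not tested. Uncalled log2 fold changes near 0 turned sign. With 1 library left out, Arg-ACG-1-1 ranged from -0.65 to 0.062, its main sequence from -0.60 to 0.49, His-GTG-1-6 from -0.70 to 0.55, Val-TAC-1-1 from -1.21 to 1.00, its main sequence from -1.53 to 0.54, Ala-CGC-3-1 from -0.18 to 0.61, Arg-ACG-3-2 from -0.096 to 0.97 and Cys-GCA-10-1 from -0.44 to 0.20. Without a filter the 2 sequences had 0.42 and 0.19. His-GTG-1-6 had -0.036 with median-of-ratios factors, -0.075 with library totals and -0.061 with the replicate block, Val-TAC-1-1 had -0.38 with the block, and Cys-GCA-10-1 had 0.014 with limma trend. Depth limits trailers with few control reads most.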
